A study of Mus musculus with 19 samples.

Results

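Bc1 and 7SK (listed in the table as BC1 and RN7SK) are a pair of small noncoding RNAs, followed here across 19 RNA-sequencing libraries of mouse liver tumors. They are 2 of the 19486 named genes in the deposited table, and they were chosen by their deposited values in the 5 libraries of one group, MYC_HCC, which they split. The values within that group are therefore a description and carry no test. The groups are given by the names in the labels: MYC_Recur (3 libraries), MYC_Twist1_OFF (3), MYC_OFF (3), MYC_Twist1_HCC (5) and MYC_HCC (5). All libraries are labelled liver and hepatocellular carcinoma (HCC), and the series title speaks of metastatic and non-metastatic HCC driven by MYC. The sources used here give no genotype, strain, age, transgene promoter, agent or time for any group. Per the labels, the 10 HCC libraries were re-analysed from an earlier deposit and the other 9 are new, so deposit and group cannot be told apart where an HCC group is compared with an OFF or Recur group.

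Both RNAs are made by RNA polymerase III, the enzyme that also makes transfer RNA and 5S ribosomal RNA, and MYC is known to stimulate that enzyme. 7SK is the scaffold of a ribonucleoprotein that holds P-TEFb, the kinase Cdk9 with a cyclin T, in an inactive state through Hexim proteins; P-TEFb released from it lets paused RNA polymerase II elongate. Bc1 is a rodent RNA derived from a transfer RNA retroposon. It is best known from neurons, where it represses the start of translation, and it is also found in germ cells and in tumors.

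In the GENCODE M21 annotation of GRCm38, the assembly that mm10 names, Bc1 is a single-exon gene at chr7:144914470-144914637 on the plus strand, 168 bases long and classed as lincRNA. Rn7sk is a single-exon gene at chr9:78175303-78175633 on the minus strand, 331 bases long and classed as misc_RNA. The transcripts are shown because they carry the features by which each RNA is known. The whole of Bc1 is printed with the end of its polymerase III A box (AGTGG) and the core of its B box (GGTTCG) in capitals. Of 7SK the first 120 bases (chr9:78175514-78175633, minus strand) are printed, with each GATC, the motif of the Hexim-binding stem, in capitals.
Bc1: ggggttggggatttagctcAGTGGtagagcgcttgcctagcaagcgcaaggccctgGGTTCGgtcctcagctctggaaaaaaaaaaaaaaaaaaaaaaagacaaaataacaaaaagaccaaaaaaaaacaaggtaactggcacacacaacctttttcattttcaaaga
Rn7sk: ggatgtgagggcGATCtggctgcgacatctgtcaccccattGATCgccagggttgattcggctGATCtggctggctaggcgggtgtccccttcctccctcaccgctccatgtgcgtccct

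Both strands were searched, with motifs chosen in knowledge of these sequences. In Bc1 the A box end lay at bases 20 to 24 and the B box core at bases 57 to 62, each once and on the transcribed strand. Among the first 168 bases of 135207 annotated mouse transcripts, 32.6% held the letters of the A box end and 3.11% the B box core. In 7SK, GATC began at bases 13, 42 and 64, and 27.6% of 137364 transcript windows of 120 bases held it at least once. After the transfer RNA-like part, Bc1 has a run of 23 A and then an A-rich stretch. Words of 30 bases from Bc1 occurred in transcripts of 22 other annotated genes, and words from 7SK in those of 30. The sources used here do not give how the authors counted reads that fit several places, so both levels are uncertain to that extent.

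Bc1 separated the libraries into high and low ones. The deposited Bc1 signal was 4540.97, 6170.85 and 4005.17 in the MYC_Recur libraries. It was 1322.26, 1373.57 and 1905.98 in MYC_Twist1_OFF, and 1097.13, 1707.90 and 1662.54 in MYC_OFF. Every MYC_Recur library lay above every OFF library, and the OFF groups overlapped each other. In MYC_Twist1_HCC the signal was 4245.75, 4434.99, 5510.69, 6574.51 and 3988.59, a range that overlapped MYC_Recur and lay wholly above both OFF groups. Such separation was common. Of all genes tested, 41.8% lay higher in MYC_Recur than in MYC_OFF without overlap, and 37.6% lower in MYC_Twist1_OFF than in MYC_Twist1_HCC. No share was taken for MYC_Recur with MYC_Twist1_OFF or for MYC_Twist1_HCC with MYC_OFF. The MYC_HCC libraries had 4906.45, 4587.12, 6114.52, 189.76 and 414.29, in the order of their replicate numbers. MYC_HCC 1, 2 and 3 were at the level of MYC_Twist1_HCC, while MYC_HCC 4 and 5 lay below every one of the other 17 libraries.

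7SK was likewise high in MYC_Recur and MYC_Twist1_HCC and low in both OFF groups. It was 64.54, 61.87 and 106.11 in MYC_Recur, with replicate 3 the highest of all 19 libraries. It was 16.67, 12.97 and 22.28 in MYC_Twist1_OFF, and 20.33, 15.02 and 16.17 in MYC_OFF, so the OFF groups again overlapped each other. MYC_Twist1_HCC had 43.49, 55.91, 51.00, 60.17 and 35.67, above both OFF groups and below MYC_Recur without overlap, the nearest libraries being 60.17 and 61.87. The shares of all genes given beside Bc1 apply to 7SK too. Of all genes tested, 12.8% lay higher in MYC_Recur than in MYC_Twist1_HCC without overlap. MYC_HCC had 55.05, 49.56, 50.48, 9.17 and 3.16, and replicates 4 and 5 were again the lowest libraries of the series.

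**Figure D1:**
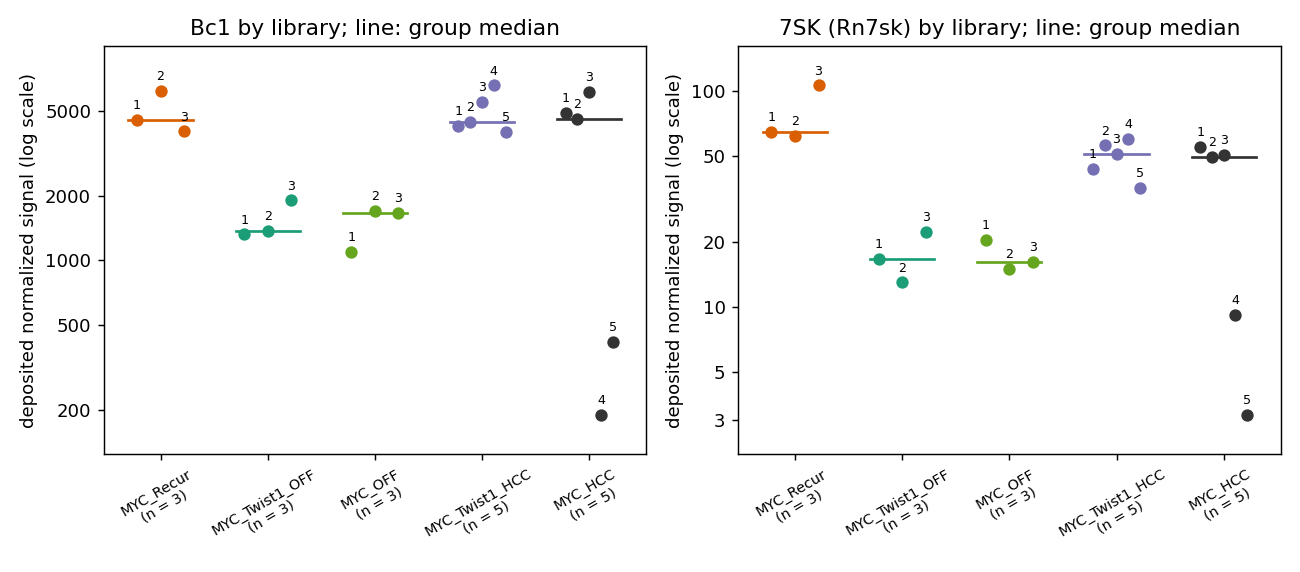
Deposited normalized signal of Bc1 (left) and 7SK (right) in each of the 19 libraries, on log axes; points are libraries with their replicate numbers, and lines are group medians. MYC_Recur and MYC_Twist1_HCC lie above both OFF groups for both RNAs, and MYC_HCC replicates 4 and 5 lie below all other libraries (Bc1 189.76 and 414.29, 7SK 9.17 and 3.16).

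Group means with SD put Bc1 at 4905.7 ± 1128.0 in MYC_Recur, 1533.9 ± 323.2 in MYC_Twist1_OFF, 1489.2 ± 340.3 in MYC_OFF (n = 3 each) and 4950.9 ± 1076.9 in MYC_Twist1_HCC (n = 5). For 7SK they were 77.51 ± 24.81 in MYC_Recur, 17.31 ± 4.69 in MYC_Twist1_OFF, 17.17 ± 2.79 in MYC_OFF and 49.25 ± 9.80 in MYC_Twist1_HCC. The neighbours MYC_Twist1_OFF and MYC_OFF in this order did not differ beyond their spread for either RNA, nor did MYC_Recur and MYC_Twist1_HCC for Bc1. The coefficient of variation of Bc1 was 21.1% to 23% in these groups and 84.7% in MYC_HCC, where the highest library was 32.2 times the lowest. For 7SK it was 16.3% to 32% in these groups and 75% in MYC_HCC, where the highest library was 17.4 times the lowest. A mean over MYC_HCC describes none of its libraries for either RNA, so none is used below.

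Bc1 took 0.58% to 1.01% of a library's summed signal in MYC_Recur, 0.224% to 0.357% in MYC_Twist1_OFF, 0.183% to 0.302% in MYC_OFF and 0.729% to 1.15% in MYC_Twist1_HCC. In MYC_HCC its share was 0.86%, 0.849%, 0.971%, 0.0368% and 0.0765%. By deposited signal it ranked between 2 and 17 among all genes in MYC_Recur, MYC_Twist1_HCC and MYC_HCC 1 to 3, between 29 and 70 in the OFF groups, and 433 and 195 in MYC_HCC 4 and 5. The sources used here do not give whether the signal is divided by transcript length, so these ranks compare libraries and not genes.

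The ratio of the Bc1 signal to the 7SK signal shows how far the RNAs moved together. It was 70.4, 99.7 and 37.7 in MYC_Recur, 79.3, 106 and 85.5 in MYC_Twist1_OFF, 54, 114 and 103 in MYC_OFF, and between 79.3 and 112 in MYC_Twist1_HCC. In MYC_HCC it was 89.1, 92.6, 121, 20.7 and 131. The lowest ratio of the series was that of MYC_HCC 4, where Bc1 was lowest, and the highest that of MYC_HCC 5, where 7SK was lowest. Of the pair of libraries low in both RNAs, MYC_HCC 4 thus had the lower Bc1 and MYC_HCC 5 the lower 7SK. The ratio of 131 in MYC_HCC 5 lay near the 121 of MYC_HCC 3 and the 114 of MYC_OFF 2. That of 20.7 in MYC_HCC 4 lay apart, the next lowest being 37.7 in MYC_Recur.

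To compare groups without the values that chose the genes, limma was fitted to log2(signal + 1) over 14 libraries, leaving MYC_HCC out, with 12974 genes tested. A change is called at a Benjamini-Hochberg adjusted p under 0.05 over all genes of a comparison. Since the labels do not tie the samples to separate animals, a p-value reflects the spread among these libraries, which may be technical. In bulk tumor RNA, fewer cells of a type and less RNA per cell cannot be told apart. The comparisons share groups with one another, so their values stand side by side and are not independent of each other.

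Between MYC_Recur and MYC_OFF, both in the new deposit, both RNAs were higher in MYC_Recur. Bc1 rose by 1.72 on the log2 scale (SE 0.31, 95% interval 1.06 to 2.39, limma adjusted p = 0.000464), 3.3-fold. 7SK rose by 2.08 (SE 0.27, 95% interval 1.5 to 2.66, limma adjusted p = 5.31e-05), 4.22-fold. Both were among many: 51.9% of all genes tested were called, 40.7% as higher and 11.2% as lower in MYC_Recur, and libraries did not overlap, with MYC_Recur higher, for 41.8%. The median of all genes tested was 0.47, so Bc1 stood 1.25 and 7SK 1.61 above it, and 87.9% and 92.6% of genes had a lower difference than Bc1 and 7SK.

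The size and, for Bc1, the call depend on choices made with the MYC_HCC split known. With all 5 groups fitted, so that MYC_HCC enters the shared spread, the adjusted p from limma was 0.137 for Bc1 and 0.0202 for 7SK. Scaling the libraries by median of ratios or by upper quartile took the differences to 1.09 and 1.03 for Bc1 and to 1.46 and 1.41 for 7SK, all still called, and moved the median of all genes, 0.47 as deposited, to -0.06 and -0.10. Under these scalings 51.2% and 49.4% of the called genes were higher in MYC_Recur, against 78.4% with the values as deposited.

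Between MYC_Twist1_OFF and MYC_OFF, also both in the new deposit, neither RNA was called. The difference was 0.05 for Bc1 (95% interval -0.62 to 0.72) and -0.01 for 7SK (95% interval -0.59 to 0.57), each with a limma adjusted p of 1. Of all genes tested 0% were called by limma here, with 304 genes (2.34%) at an unadjusted p under 0.05.

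In the MYC/Twist1-labelled libraries both RNAs were lower in MYC_Twist1_OFF than in MYC_Twist1_HCC. Bc1 fell by 1.68 on the log2 scale (SE 0.28, 95% interval -2.28 to -1.09, limma adjusted p = 0.000318), to 0.311 of its MYC_Twist1_HCC level. 7SK fell by 1.46 (SE 0.24, 95% interval -1.99 to -0.94, limma adjusted p = 0.00033), to 0.362 of it. Here 48.0% of all genes tested were called, 35.9% as lower and 12.1% as higher in MYC_Twist1_OFF, and libraries did not overlap, with MYC_Twist1_OFF lower, for 37.6%. The median of all genes was -0.33, and 7.88% and 11.3% of genes had a lower difference than Bc1 and 7SK. Deposit and group coincide in this comparison and cannot be told apart. With all 5 groups fitted the calls were lost, at a limma adjusted p of 0.108 for Bc1 and 0.0634 for 7SK. Under median-of-ratios and upper-quartile scaling both were still called, at -1.28 and -1.18 for Bc1 and -1.08 and -0.98 for 7SK, while the share of called genes that were higher in MYC_Twist1_OFF was 47.1% and 52.8%, against 25.2% as deposited.

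Between MYC_Recur and MYC_Twist1_HCC the Bc1 difference was -0.01 and was not called (95% interval -0.61 to 0.58, limma adjusted p = 0.988). 7SK was 0.62 higher in MYC_Recur (95% interval 0.10 to 1.14), which was not called (limma adjusted p = 0.145) although the libraries did not overlap. Non-overlap with MYC_Recur higher held for 12.8% of all genes, and 5.52% were called, 2.88% as higher in MYC_Recur. Deposit coincides with group here as well. Among the called genes 52.2% were higher in MYC_Recur as deposited, 39% after scaling to a common total, 35.4% by median of ratios and 36.6% by upper quartile.

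**Figure D2:**
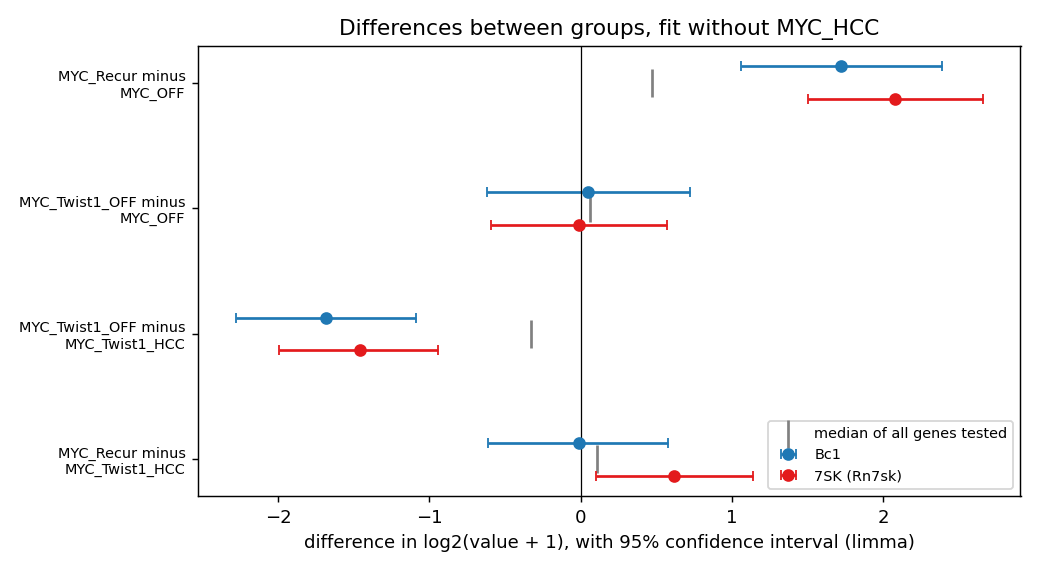
Differences in log2(signal + 1) for Bc1 and 7SK in 4 group comparisons, first-named group minus second, as points with 95% confidence intervals from limma; grey ticks mark the median of all genes tested. Both RNAs lie at 1.72 and 2.08 for MYC_Recur minus MYC_OFF and at -1.68 and -1.46 for MYC_Twist1_OFF minus MYC_Twist1_HCC, on the same side as the median of all genes (0.47 and -0.33).

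Myc itself, the gene for which the groups are named, had 155.6 ± 3.14 in MYC_Recur, 39.71 ± 6.65 in MYC_Twist1_OFF, 45.73 ± 13.10 in MYC_OFF (SD, n = 3 each), 125.0 ± 19.30 in MYC_Twist1_HCC and 159.5 ± 19.19 in MYC_HCC (n = 5 each). The Myc signal was between 128.5 and 180.5 in all MYC_HCC libraries, those low in Bc1 and 7SK included. Twist1 was at most 0.27 in every library, so the table does not show the difference that the group names imply, and the sources used here do not give whether transgene reads were counted under these symbols. Summed signals per library ran between 507868 and 690310, and sequencing depth is unknown.

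The 7SK particle was followed through 29 tested genes that encode its proteins, P-TEFb and the elongation factors P-TEFb acts with. Between MYC_Recur and MYC_OFF, 16 of them rose and 2 fell, with a median of 0.77 against 0.47 for all genes, of which 40.7% rose and 11.2% fell. Larp7, which binds the end of 7SK and stabilises it, rose by 2.11 (SE 0.32, limma adjusted p = 0.000147), with 57.54 ± 18.67 in MYC_Recur and 13.31 ± 7.74 in MYC_OFF (SD, n = 3 each). Mepce, which caps the start of 7SK, did not pass the test, at 0.14. Hexim1, the inhibitor that 7SK presents to the kinase, fell by 0.92 (limma adjusted p = 0.0488), and Cdk9, the kinase, rose by 0.57 (limma adjusted p = 0.0235). Ccnt1, its cyclin, was not called at 0.56. These 5 core genes were picked for their roles after their values were seen, and their changes did not share one direction.

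By the smallest p, the called genes of the 7SK list were Syncrip, an RNA-binding protein of the hnRNP family (3.52), Supt4a, a subunit of the elongation factor DSIF (2.88), Eaf1 (2.08) and Aff4, the scaffold of the super elongation complex (1.35). Eaf2, like Eaf1 a partner of the ELL elongation factors, fell by 1.53. In MYC_Twist1_OFF against MYC_Twist1_HCC, 1 of the 29 rose and 15 fell, with a median of -0.74 against -0.33 for all genes, of which 12.1% rose and 35.9% fell. Syncrip fell by 3.08, Hnrnpa1 by 1.74, Eaf1 by 1.66 and Aff4 by 1.17, while Eaf2 rose by 2.04. Larp7 fell by 1.38 (SE 0.29, limma adjusted p = 0.00166) and Cdk9 by 0.51 (limma adjusted p = 0.0254). Under median-of-ratios scaling 12 rose and 3 fell for MYC_Recur against MYC_OFF, and 4 rose and 10 fell for MYC_Twist1_OFF against MYC_Twist1_HCC. Under that scaling 23.1% of all genes rose and 21.9% fell in the first of these comparisons, and 21.1% rose and 23.6% fell in the second. Between MYC_Recur and MYC_Twist1_HCC, as deposited, 1 of the 29 rose, Mllt1 by 5.32 (limma adjusted p = 0.00248), and 0 fell. Of all genes, 2.88% rose and 2.64% fell there.

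Genes for 14 proteins that bind Bc1 or take part in the translation step it represses were all tested. Between MYC_Recur and MYC_OFF, 10 rose and 0 fell, with a median of 1.32, where 40.7% of all genes rose and 11.2% fell. Syncrip, which also stands in the 7SK list, rose by 3.52, and Pabpc1, the poly(A)-binding protein, by 3.02. Fmr1, which encodes the fragile X protein whose binding to Bc1 has been debated, rose by 1.79, and Purb, a single-strand nucleic acid-binding protein, by 1.55. In MYC_Twist1_OFF against MYC_Twist1_HCC, 0 rose and 11 fell, with a median of -1.12, where 12.1% of all genes rose and 35.9% fell. There Pabpc1 fell by 3.23, Syncrip by 3.08, Fxr1, a relative of the fragile X protein, by 1.53 and Fmr1 by 1.47. Ssb, the La protein that binds the ends of polymerase III transcripts and was singled out for that role after its values were seen, was not called in either comparison (0.32 and -0.02). Under median-of-ratios scaling 7 rose and 1 fell in the first comparison, where 23.1% of all genes rose and 21.9% fell. In the second 0 rose and 8 fell, where 21.1% of all genes rose and 23.6% fell.

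All 33 genes of RNA polymerase III and its factors were tested. Between MYC_Recur and MYC_OFF, 16 rose and 3 fell, with a median of 0.64. Polr1d, a subunit shared by polymerases I and III, rose by 2.05, Snapc5, a subunit of the complex that binds the upstream element of 7SK-type promoters, by 1.98, Crcp by 1.86 and Polr3k by 1.67, both subunits of polymerase III. Gtf3c4, a subunit of TFIIIC, the factor that binds the B box, fell by 1.96. Maf1, the repressor of polymerase III, rose by 1.56 (SE 0.26, limma adjusted p = 0.000286), singled out for its role after its values were seen.

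In MYC_Twist1_OFF against MYC_Twist1_HCC, 2 of the 33 polymerase III genes rose and 19 fell, with a median of -0.60. Gtf3c5, another subunit of TFIIIC, fell by 2.03, Polr1d by 1.77, Snapc5 by 1.73 and Polr3k by 1.61, while Gtf3c4 rose by 1.41. Maf1 fell by 1.06 (limma adjusted p = 0.00238). Between MYC_Recur and MYC_Twist1_HCC, Snapc2 and Gtf3c5 fell by 0.96 and 1.03, and 0 rose. Under median-of-ratios scaling 7 rose and 5 fell for MYC_Recur against MYC_OFF, and 5 rose and 9 fell for MYC_Twist1_OFF against MYC_Twist1_HCC. Under that scaling 23.1% of all genes rose and 21.9% fell in the first of these comparisons, and 21.1% rose and 23.6% fell in the second. As deposited, 40.7% and 35.9% of all genes tested were called in the main directions of these comparisons.

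**Figure D3:**
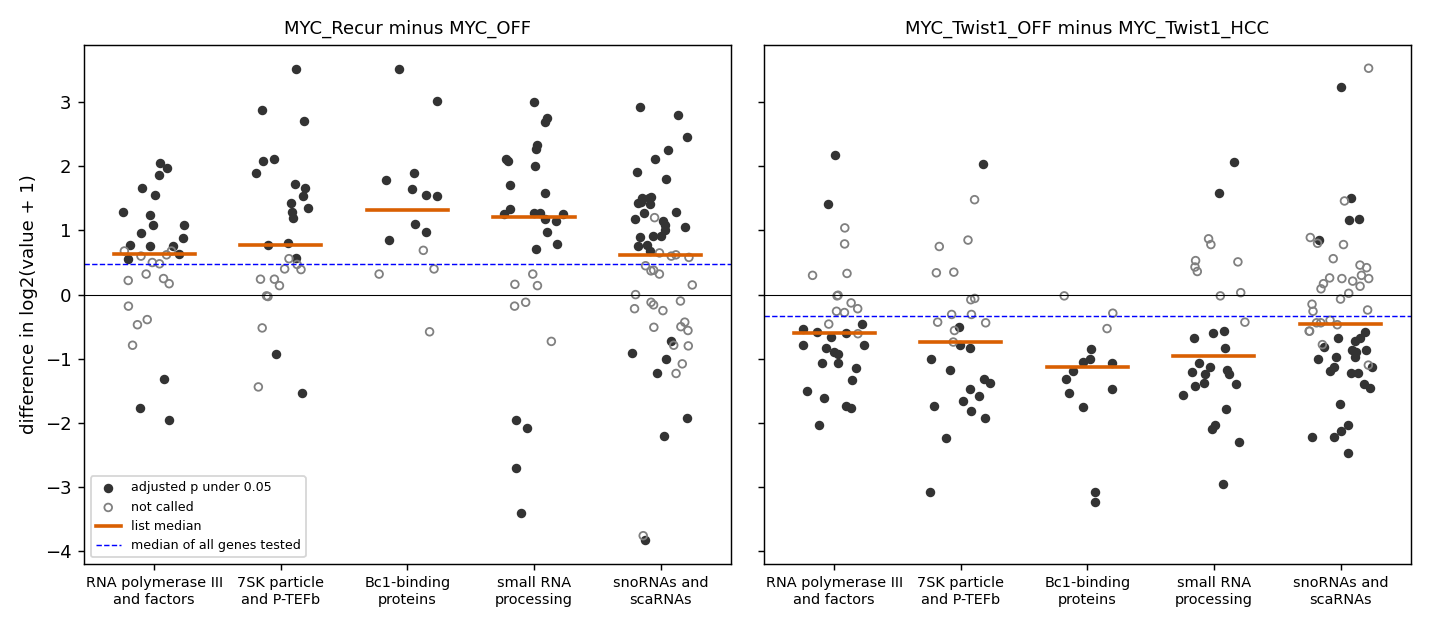
Differences in log2(signal + 1), from the values as deposited, of each tested gene of 5 lists, for MYC_Recur minus MYC_OFF (left) and MYC_Twist1_OFF minus MYC_Twist1_HCC (right); filled points have a limma adjusted p under 0.05, open points do not, orange lines are list medians and the dashed line is the median of all genes tested. List medians lie between 0.61 and 1.32 on the left, where that of all genes is 0.47, and between -1.12 and -0.45 on the right, where it is -0.33.

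Genes for the maturation and decay of small RNAs, such as the exosome, the Lsm ring and the exonucleases, were tested for 30 members. Between MYC_Recur and MYC_OFF, 20 rose and 4 fell, with a median of 1.21, where 40.7% of all genes rose and 11.2% fell. Exosc2 rose by 3.01 and Exosc9 by 2.76, both subunits of the exosome core, and Xrn2, a nuclear exonuclease, rose by 2.27. Exosc10, a catalytic exosome subunit of the nucleus, fell by 3.40. In MYC_Twist1_OFF against MYC_Twist1_HCC, 2 rose and 19 fell, with a median of -0.95, where 12.1% of all genes rose and 35.9% fell. Exosc2 fell by 2.96, Dis3, the other catalytic exosome subunit, by 2.30, Xrn2 by 2.10 and Exosc9 by 2.03, while Trove2, which binds Y RNAs, rose by 2.07. Under median-of-ratios scaling 15 rose and 5 fell in the first comparison, and 4 rose and 15 fell in the second. Of all genes, 23.1% rose and 21.9% fell under that scaling in the first, and 21.1% rose and 23.6% fell in the second. As deposited, 0 genes of each of these 4 lists were called by limma in MYC_Twist1_OFF against MYC_OFF in either direction, and 0% of all genes were. Under median-of-ratios or upper-quartile scaling 1 gene of the 7SK list fell there, the only gene called of all tested.

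Of 29 other small noncoding RNAs in the table, 16 passed the filter and were tested. Between MYC_Recur and MYC_OFF, 7 rose and 2 fell, with a median of 0.47, the same as that of all genes. Under median-of-ratios scaling 4 rose and 4 fell. Of all genes 40.7% rose and 11.2% fell as deposited, and 23.1% rose and 21.9% fell under that scaling. Rnu1a1, a U1 spliceosomal RNA, rose by 1.36 and Rny3, a Y RNA made by polymerase III, by 0.97, while the signal recognition particle RNA copies went both ways, Rn7s1 rising by 0.98 and Rn7s2 falling by 0.86. Such RNAs come from families of near-identical copies, so the value of a single copy is uncertain. Rmrp and Rpph1, the polymerase III RNAs of RNase MRP and RNase P, had at most 0.37 and 0.97 in any library and could not be followed. Rnu6, the U6 spliceosomal RNA and like 7SK a product of an upstream polymerase III promoter, had 4674.90 in MYC_OFF 2, 300.84 in MYC_Twist1_OFF 1, 260.86 in MYC_OFF 1 and 60.85 or less in all other libraries. Its pattern matched neither that of 7SK nor that of Bc1.

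Of 58 tested small nucleolar and Cajal body RNAs, which are mostly processed from introns of polymerase II transcripts, 26 rose and 7 fell between MYC_Recur and MYC_OFF, with a median of 0.61. In MYC_Twist1_OFF against MYC_Twist1_HCC, 5 rose and 24 fell, with a median of -0.45. Among 18 long noncoding RNAs 7 rose and 2 fell in the first comparison, and 1 rose and 6 fell in the second. These shares of small nucleolar and long noncoding RNAs lay near those of all genes, of which 40.7% rose and 11.2% fell in the first comparison and 12.1% rose and 35.9% fell in the second. Replication-dependent histone genes, whose messages lack poly(A) tails, had 5 of 25 tested rising and 5 falling in the first comparison, and 8 rising and 2 falling in the second. MicroRNA precursors had 9 of 37 tested rising and 3 falling, and 7 rising and 9 falling. Under median-of-ratios scaling the first comparison had 14 small nucleolar RNAs rising and 14 falling, 4 long noncoding RNAs rising and 3 falling, 4 histone genes rising and 10 falling, and 5 microRNA precursors rising and 9 falling. In the second comparison it left 12 small nucleolar RNAs rising and 18 falling, 1 long noncoding RNA rising and 3 falling, 8 histone genes rising and 1 falling, and 11 microRNA precursors rising and 4 falling. Of all genes, 23.1% rose and 21.9% fell under that scaling in the first comparison, and 21.1% rose and 23.6% fell in the second. Bc1 and 7SK were higher in MYC_Recur than in MYC_OFF under every scaling. A class of many genes more readily holds members that move each way, so the pair is not set against these classes. Some members rose more than both RNAs as deposited, such as Snord99 (2.80) and Snora28 (2.46), while Snora70 fell by 3.83.

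Within MYC_HCC, the median of other genes with short transcripts was also lower in the libraries low in Bc1 and 7SK. A gene's deviation is its log2(signal + 1) in one library minus the median over the 5 MYC_HCC libraries. For Bc1 the deviation was 0.10, 0.00, 0.41, -4.59 and -3.47 in MYC_HCC 1 to 5, and for 7SK it was 0.15, 0.00, 0.03, -2.31 and -3.60. These are the values by which both RNAs were chosen, so they are given as a description.

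Over 126 other genes whose longest annotated transcript is under 200 bases, the median deviation was 0.01, 0.22, 0.06, -0.90 and -0.62 in MYC_HCC 1 to 5. Over 25 genes of 200 bases to under 400 bases it was 0.00, 0.08, 0.00, -0.25 and -0.09. Over 4306 genes of 4000 bases or more it lay between 0.00 and 0.02 in all 5 libraries. The median deviation in MYC_HCC 4 and 5 was thus nearer to 0 in the longer of these classes. In the other 4 groups, the median deviation of genes under 200 bases from their own group's median lay between -0.04 and 0.37. The 0.37 was that of MYC_OFF 1, whose median deviation was 0.18 to 0.25 in every longer class too. In groups of 3 libraries, 1 library is the median for each gene, which draws the median deviation toward 0. The part of transcript length in the low Bc1 and 7SK values was not tested.

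**Figure D4:**
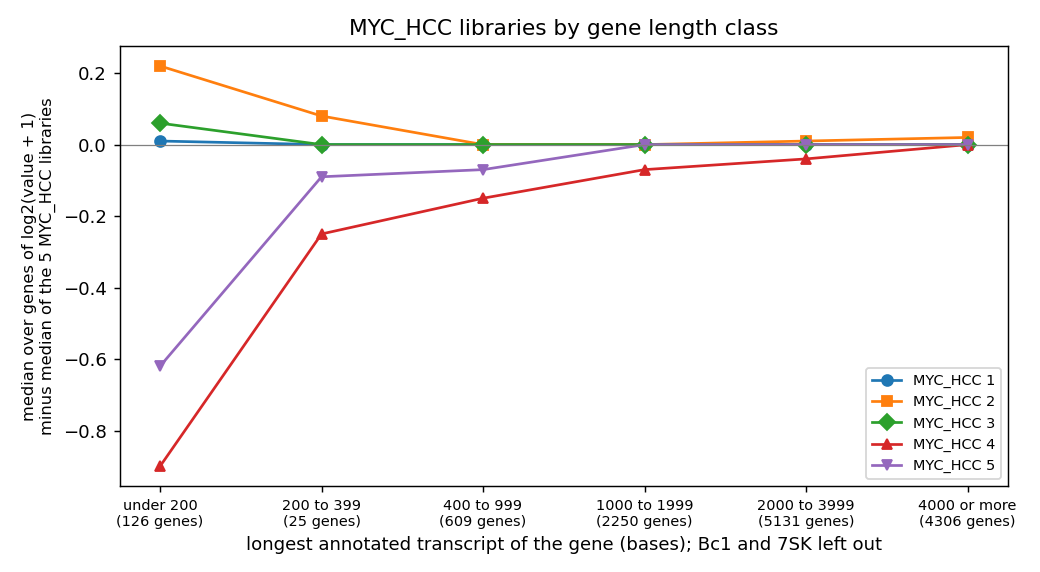
Median deviation of genes from the MYC_HCC group median, in log2(signal + 1), by the length of their longest annotated transcript, for each of the 5 MYC_HCC libraries; Bc1 and 7SK are left out. MYC_HCC 4 and 5 lie at -0.90 and -0.62 for genes under 200 bases and at 0.00 for genes of 4000 bases or more.

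Summed signals of the lists differed in how they split these libraries. The summed signal of 97 small nucleolar and Cajal body RNAs was 643.8, 691.6, 662.0, 232.2 and 299.7 in MYC_HCC 1 to 5, and between 464.3 and 856.0 in the other 14 libraries. That of the long noncoding RNAs was 654.2, 629.8, 662.9, 270.2 and 402.5, and 407.4 to 784.7 in the other 14. Both sums were lower in MYC_HCC 4 and 5 than in any other library. The microRNA precursors summed to 315.9, 377.5, 363.0, 277.2 and 237.1, within the 216.9 to 427.8 of the other 14. The histone genes summed to 169.0, 177.8, 199.5, 365.7 and 122.3, against 182.6 to 539.4 in the other 14. Histone genes were thus highest of the 5 in MYC_HCC 4 and lowest in MYC_HCC 5. Rnu1a1 had 16.81, 26.07, 19.44, 1.37 and 2.44, and its range over the other 14 libraries was 4.06 to 17.27. Rn4.5s, a rodent polymerase III RNA, had 5.80, 7.88, 5.93, 6.31 and 8.44, so not every small RNA was low in MYC_HCC 4 and 5. The summed signal of the polymerase III list was 1141.2, 1159.9, 1145.2, 792.5 and 1098.2, and that of the small RNA processing list 1961.0, 1943.3, 2089.9, 1042.7 and 1682.1. Within MYC_HCC these last sums were lowest in replicate 4, and replicate 5 lay nearer to the others.

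Hepatocyte markers were present in all libraries. The sum of 12 markers was 8563.9 to 11349.5 in MYC_Recur, 2544.3 to 3223.3 in MYC_Twist1_OFF, 2291.1 to 4042.9 in MYC_OFF, 7101.1 to 10412.0 in MYC_Twist1_HCC, and 10242.9, 9950.9, 10624.7, 17582.0 and 11606.4 in MYC_HCC 1 to 5. Of the 12, 10 rose and 0 fell between MYC_Recur and MYC_OFF, where 40.7% of all genes rose and 11.2% fell. In MYC_Twist1_OFF against MYC_Twist1_HCC 0 rose and 8 fell, where 12.1% of all genes rose and 35.9% fell. As deposited, the called hepatocyte markers thus moved in the direction of Bc1 and 7SK, as did many other genes. Under median-of-ratios scaling 6 rose and 1 fell in the first comparison and 0 rose and 7 fell in the second. Of all genes, 23.1% rose and 21.9% fell under that scaling in the first, and 21.1% rose and 23.6% fell in the second. In MYC_HCC 4 the sum was highest while Bc1 was lowest. Of the 5 MYC_HCC libraries, Apoa1 was lowest there (886.08, against 1469.17 to 2578.75). Trf and Cyp2e1 were highest in MYC_HCC 5 (2440.72 and 144.51, against 1851.15 and 104.94 in MYC_HCC 4). The other markers were highest of the 5 in MYC_HCC 4. The part of hepatocyte content in the Bc1 and 7SK differences was not tested. Neuron markers, 12 genes, summed to at most 9.7 in any library, and germ cell markers, 9 genes, to at most 4.9. These sums were low in libraries high and low in Bc1 alike, and the highest neuron sum was in MYC_Twist1_OFF 2. Few of these markers passed the filter. Of 3 neuron markers tested 1, Rbfox3, fell by 0.95 in MYC_Recur against MYC_OFF, while the 1 germ cell marker tested was not called. The part of neurons or germ cells in the Bc1 signal was not tested.

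Likeness across libraries is given as Pearson's r of log2(signal + 1), as a description without a test, since all points share group, deposit and library. Genes with a predicted or clone symbol were passed over in naming those most alike, but were counted in the ranks given below. Over all 19 libraries the genes most like Bc1 were Gt(ROSA)26Sor, a noncoding transcript (r = 0.95), and Snord52, Snord49b and Arxes1 (0.94 each). Those most like 7SK were Hist1h4c and Sec61g (0.92 each), and Snord52, Ccdc38 and Serpine2 (0.91 each). Ccdc38 was also among the 5 most like Bc1 (0.93). Snord52, a small nucleolar RNA, was listed at 0.00 in both MYC_HCC 4 and 5, against 11.91, 16.37 and 12.51 in MYC_HCC 1 to 3. Bc1 and 7SK had r = 0.89 with each other (Spearman's rho 0.82), a value that includes the MYC_HCC values by which they were chosen.

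Over the 14 libraries outside MYC_HCC the r of Bc1 with 7SK was 0.88. There 7SK ranked 1093 among 12974 genes by likeness to Bc1, and Bc1 ranked 2226 by likeness to 7SK. The genes most like Bc1 were then Cox6a1, a subunit of cytochrome oxidase, Rps29, a ribosomal protein, Lrrc3, Hook1 and Hmgn2 (0.97 each). Those most like 7SK were Ifrd2, Drap1, Sgms2, Wdr46 and Med21, a subunit of Mediator (0.99 each). The same gene was in no case among the 5 most alike both with and without MYC_HCC. In MYC_HCC 4 and 5, Cox6a1 had 571.83 and 424.82, against 390.90, 483.68 and 430.69 in MYC_HCC 1 to 3. Hmgn2 had 193.76 and 495.60, against 482.19, 501.27 and 579.22. Genes like Bc1 elsewhere thus differed in whether they were low in these libraries. Of those like 7SK, Med21 had 35.75 and 44.22, against 71.77, 69.45 and 79.94 in MYC_HCC 1 to 3. Wdr46 had 32.19 and 62.94, against 60.24, 70.44 and 60.74. Med21 was lower in both libraries than in MYC_HCC 1 to 3, and Wdr46 in MYC_HCC 4 alone. These 4 genes were picked after their values were seen.

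Genes near Bc1 and 7SK are given by their own values, and no difference from Bc1 or 7SK was tested. Lto1, listed under its older symbol Oraov1, begins 463 bases from Bc1 on the same strand. It was not called between MYC_Recur and MYC_OFF (-0.71, limma adjusted p = 0.132) and rose by 1.58 in MYC_Twist1_OFF against MYC_Twist1_HCC (limma adjusted p = 0.00189), where Bc1 fell. Ccnd1, the cyclin D1 gene 15.3 kb from Bc1, was not called in either (0.51 and 0.10), and Fgf3 and Fgf15 had group means of at most 0.31. The sources used here do not give whether reads were counted by strand.

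Ick, a kinase gene whose end lies 3.2 kb from 7SK, rose by 1.43 in MYC_Recur against MYC_OFF (limma adjusted p = 0.000312) and was not called in MYC_Twist1_OFF against MYC_Twist1_HCC (-0.50). In MYC_HCC its signal was 1.75, 2.32, 1.41, 2.73 and 1.86, with no drop in replicates 4 and 5. Fbxo9, which encodes an F-box protein and lies 66.2 kb away, fell by 1.58 between MYC_Recur and MYC_OFF (limma adjusted p = 0.000475). Gsta4, a glutathione transferase gene 7.1 kb away, fell by 0.82 in MYC_Twist1_OFF against MYC_Twist1_HCC (limma adjusted p = 0.00665), and Gsta1, 55.0 kb away, rose by 0.82 (limma adjusted p = 0.0144). Gsta1 fell by 0.85 in MYC_Recur against MYC_OFF (limma adjusted p = 0.02), where 7SK rose. In MYC_Recur against MYC_Twist1_HCC, where 7SK was not called, Ick rose by 0.90 (limma adjusted p = 0.031). Fbxo9 fell there by 1.69 (limma adjusted p = 0.00275). The noncoding gene C920006O11Rik, 281 bases from 7SK, and Gm3776 had group means of at most 0.58.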

How the data were processed

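RNA of 19 liver tumor samples was sequenced. Per the labels' protocols, frozen tumors were extracted with Qiagen RNeasy and sequenced from BGI's standard libraries; whether poly(A) selection was used is not stated. A single table was deposited by the authors, with a normalized signal per gene symbol and sample to 2 decimals; the submitters' processing notes name STAR, featureCounts, DESeq2, Picard and Trimmomatic and the build mm10, with no version, setting or formula. These values are not whole numbers and the depth is unknown, so no counting interval can be given. Of 19511 symbols, 25 bare numbers were left out.

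Genes with a value of at least 1 in at least 3 of the 14 libraries outside MYC_HCC entered the limma test (limma 3.58.1, R 4.3.3) on log2(value + 1), with an intensity trend, 1 mean per group and 10 residual degrees of freedom. Two-sided p-values were adjusted by Benjamini-Hochberg within each comparison. Fold changes on this scale understate changes of low genes. The procedure was tested on simulated data. Bc1, 7SK, the gene lists, the motifs and the choice to leave MYC_HCC out of the tests were made with earlier results of these data known. Named besides Bc1 and 7SK are Myc, Twist1, the 5 genes most like each, genes of the lists by smallest p, small noncoding RNAs and annotated genes within 100 kb, and others only where the text says so. Transcript lengths, loci and sequences are from GENCODE M21 on GRCm38; 12449 of 13253 genes (93.9%) had a length. Alternatives were the pseudocount, the filter, 3 scalings, the libraries fitted, no trend, a replicate block and each of 14 libraries left out. Deviations of same-numbered samples correlated at -0.17 to 0.39, not above 0.1 in every pair of any comparison, so the numbers were not taken as pairs.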

Additional observations from a re-analysis of the deposited data

Results flagged for a closer look

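In the groups of 5, Bc1 and 7SK (in MYC_Twist1_HCC) and their measured neighbours (in both) were examined for a single outlying library. A library was flagged when its gap to the nearest other library, as a share of the group's range, passed Dixon's 95% critical value. For normally distributed values chance exceeds it in about 1 of 20 groups, and 22 groups were examined. The signals were taken without a log and some lay near 0, such as those of Fgf3, so that rate may not hold here. In MYC_HCC 4, Gsta4 was at 45.24 (the others at 2.11 to 4.01), Gsta1 at 4.89 and Ccnd1 at 6.79. In MYC_Twist1_HCC, Oraov1 (Lto1) was at 5.73 and Fgf3 at 0.22 in replicate 1, and Gsta4 at 2.30 in replicate 4. Fgf3 was at 0.06 in MYC_HCC 2. MYC_HCC 4 is the library in which Bc1 was lowest; the values stand without an explanation.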

How the results depend on the processing

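The called differences of Bc1 and 7SK kept their direction and call when each of 14 libraries was left out, and under every other alternative but the fit of all 5 groups, where Bc1 in MYC_Recur against MYC_OFF (1.72) and Bc1 and 7SK in MYC_Twist1_OFF against MYC_Twist1_HCC (-1.68 and -1.46) were no longer called. With 1 library left out, Bc1 ranged from 1.52 to 1.86 in MYC_Recur against MYC_OFF, -0.16 to 0.16 in MYC_Twist1_OFF against MYC_OFF, -1.85 to -1.58 in MYC_Twist1_OFF against MYC_Twist1_HCC and -0.19 to 0.12 in MYC_Recur against MYC_Twist1_HCC. 7SK ranged from 1.83 to 2.22, -0.20 to 0.17, -1.65 to -1.29 and 0.38 to 0.76. Differences near 0 changed sign. Bc1 in MYC_Twist1_OFF against MYC_OFF was -0.07 under the median of ratios and -0.0016 under the upper quartile, and 7SK there was 0.07 at a common total. With the replicate block Bc1 was 0.04 in MYC_Recur against MYC_Twist1_HCC, still not called, and the block changed no call of either RNA. Genes called between MYC_Twist1_OFF and MYC_OFF numbered 0 with 304 at an unadjusted p under 0.05, 1 with a pseudocount of 5, a filter of 5, either scaling by ratios or quartile, or all 5 groups fitted, and 0 to 2 with 1 library left out. Genes called between MYC_Recur and MYC_Twist1_HCC numbered 716, 196 with the block, and 270 to 1025 with 1 library left out; the count was 270 without MYC_Recur 3, 375 without MYC_Twist1_HCC 1, 387 without MYC_Twist1_HCC 5 and 390 without MYC_Recur 2. Of list counts under all alternatives 2138 stayed within 1.5 times and 262 moved further; of named list genes 2335 values kept direction and call and 94 lost the call. The unknown depth and formula limit how precisely low genes can be read.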
